A study of Culter alburnus with 6 samples.

Results

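The loci described here are the 200, of 28228 in the deposited table, that had their highest read counts in control libraries 1 and 3 and cryopreserved library 2, and their lowest in control library 2 and cryopreserved libraries 1 and 3. This axis runs across the study's groups: each side of it mixes controls and cryopreserved animals. Raw counts were divided by median-of-ratios size factors, which bring the libraries to a common level at the median locus and not to a common total. Such values are called normalized counts throughout. A locus was ranked if its mean over the high side lay from 50 to 15000 and if the highest library of either side was below 3 times the lowest of that side, which 13240 loci fulfilled. The score was the lowest value of the high side divided by the highest value of the low side plus 5, and the 200 highest scores were taken. The loci were thus selected on the normalized counts of all 6 libraries, so their difference between the sides is a description and was given no test.

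The animals were Culter alburnus, a carp-like freshwater fish also called topmouth culter. The 3 control libraries carry the source name WT and the treatment control. The 3 cryopreserved libraries come from animals that were vitrified at the tail-bud stage and rewarmed; which warming method they had, the age at sampling, the strain and any pooling of animals are not given in the labels. The labels name embryos as the tissue, whereas the design text speaks of larvae for the sequencing. A p-value sets the difference between the groups against the spread among libraries of a group. Nothing states that libraries of a group came from separate batches of animals, so that spread may be technical in origin.

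Vitrification cools an embryo so fast, and in so concentrated a cryoprotectant, that its water turns to glass without forming ice, and rewarming must outrun ice growth in the same way. Fish embryos are known as difficult to cryopreserve because they are large, rich in yolk and poorly permeable to water and cryoprotectants. The tail-bud stage comes when the body axis is extending and the organ primordia are forming, and many transcripts change quickly with developmental time at that age. RNA from whole animals averages over all cell types, and fewer cells of a type cannot be told apart from less RNA per cell.

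The table names loci by locus tag only. All 28228 tags occur in the annotation of assembly ASM4018292v1, where the symbol of each repeats its tag, so 0 loci could be given a gene name, a pathway or a cell type, and the labelled tissue could not be checked against markers. The loci are therefore described by their levels, their span and their place in the annotation's order. Library totals lay between 26611022 and 30795972 counts, with no total far from the others. The size factors did not follow the totals. They were 0.863 in cryopreserved 1 and 0.890 in control 3, which had the largest totals, and from 1.07 to 1.14 in the other libraries. Division by them thus raised cryopreserved 1 and control 3 relative to their totals. With scaling by library size only, the rule kept 93 of the 200 loci. Control 3 and cryopreserved 1 stood apart: among the 13040 ranked loci outside the 200, these libraries held the highest of the 6 values for 27.7% and 31% of loci, and the lowest for 21% and 25.1%, against at most 15% and 18.6% in any other library. Fitted changes and summed levels are given with and without them.

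The locus with the highest score, 2.95, was ABG768_010975. It had 115, 84.3 and 77.9 normalized counts in control 1, control 3 and cryopreserved 2, and 21.4, 15.1 and 21.1 in control 2, cryopreserved 1 and cryopreserved 3. The high side averaged 4.81 times the low side. Both sides were narrow beside the gap between them. As the rule requires, cryopreserved 2 stood with the controls of its side rather than with the other cryopreserved libraries.

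ABG768_011492, the second by score, had 462, 468 and 449 normalized counts in control 1, control 3 and cryopreserved 2, and 126, 83.5 and 171 in control 2, cryopreserved 1 and cryopreserved 3. Its high side was nearly flat, at 459.8 ± 10 (SD, n = 3 libraries), whereas the low side was spread, at 127 ± 43.6 (SD, n = 3). ABG768_026777, the fourth, was flat on both sides. It stood at 313, 331 and 338 against 132, 133 and 124, in the same order of libraries, which is 2.52 times as much on the high side. ABG768_007043, the fifth, had 411, 366 and 523 normalized counts against 139.7, 140.3 and 157, or 2.97 times as much.

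ABG768_016834 and ABG768_004464 complete the 6 highest scores. The former, with a score of 2.34, stood at 239.6, 128 and 125 in control 1, control 3 and cryopreserved 2, and at 31.7, 39.4 and 48.4 in control 2, cryopreserved 1 and cryopreserved 3. Control 1 stood alone above the rest of its side. The latter, with a score of 2.25, stood at 59.7, 64 and 46.9 against 7.45, 6.95 and 15.8. Its raw counts in control 2 and cryopreserved 1 were 8 and 6, the lowest of any of the 200 loci in those libraries, so its ratio of 5.64 rests on few reads.

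At the other end of the ranking the sides were closer. The last pair inside, ABG768_007810 and ABG768_007770, had scores of 1.4713 and 1.4707, and the first pair outside, ABG768_009468 and ABG768_019702, had 1.4698 and 1.4696. ABG768_007810 stood at 106, 154 and 99.1 normalized counts in control 1, control 3 and cryopreserved 2, and at 62.4, 59.1 and 61.6 in control 2, cryopreserved 1 and cryopreserved 3. ABG768_009468 stood at 753, 903 and 996 against 460, 350.1 and 507. The members' edge is thus a point on a gradient and not a gap: 2275 ranked loci had a score above 1, and only 9 of the 200 had one above 2.

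The highest mean normalized counts over the 6 libraries, among the 200, belonged to ABG768_015878 and ABG768_008509. ABG768_015878 had 14159, 14577 and 14284 on the high side, and 9097, 7063 and 8189 in control 2, cryopreserved 1 and cryopreserved 3. ABG768_008509 had 11946, 12721 and 16770.2 against 6593, 4995 and 7096. Such counts are not levels per length, since transcript lengths were not used here. The mean over the 6 libraries was below 100 for 13 of the 200 loci, from 100 to 1000 for 133 and above 1000 for 54.

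**Figure D1:**
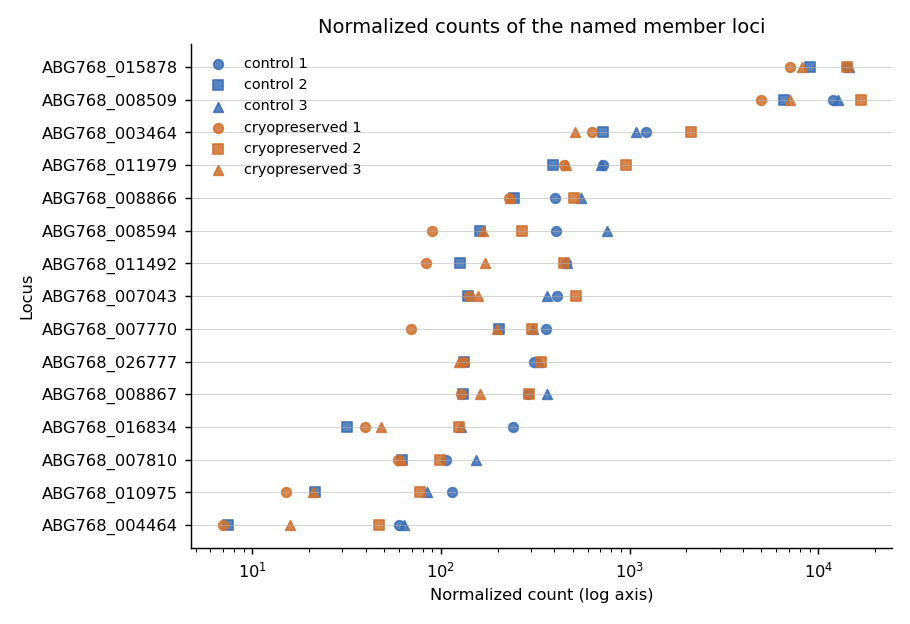
Normalized counts (log axis) of the 15 named loci that belong to the 200, ordered by their mean, with 1 point for each library; blue is control and orange cryopreserved, and the shape gives the library number. In every row control 1, control 3 and cryopreserved 2 lie to the right of the other 3 libraries, as the rule requires, from 46.9 against 15.8 at the closest approach in the lowest row to 14159 against 9097 in the top row.

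Over the 200 loci the geometric mean of the high side was a median of 2.20 times that of the low side (range 1.57 to 6.02). The tested loci as a whole were also often split along this line: of 21846, 14% had control 1, control 3 and cryopreserved 2 wholly above the other 3 libraries, and 14.4% had them wholly below. The rule used this split, so nothing is read from the members' own count.

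The 3 low libraries were not alike. The normalized counts of each locus were set against their own mean over the 6 libraries. This gave median relative levels of 1.27 in control 1, 1.38 in control 3 and 1.41 in cryopreserved 2. The corresponding values were 0.681 in control 2 and 0.715 in cryopreserved 3, close to each other, but 0.481 in cryopreserved 1. Cryopreserved 1 held the lowest value of 159 of the 200 loci, control 2 that of 29 and cryopreserved 3 that of 12. It was thus the lowest of its side in 79.5% of the 200 loci, beside 36.3% of the other ranked loci. Among those others cryopreserved 1 was also the highest of its side in 46.6%, and the rule bars loci with a high value in any low library. Its low place in the 200 is therefore partly set by the choice of loci. Against cryopreserved 3 the median ratio of cryopreserved 1 was 0.672 over the 200 loci and 1.05 over the other ranked loci.

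The limit on spread within a side removed loci in which cryopreserved 1 was lower still. Of the loci with a mean in the allowed range, 119 had a score as high as that of the last member but exceeded the limit, all of them on the low side and 3 on the high side too. In 116 of the 119 the lowest library was cryopreserved 1. On the high side control 1 was most often the lowest by normalized counts, in 54.5% of the 200 loci beside 33.4% of the other ranked loci. The highest value of that side lay in control 3 for 41.5% of the 200, in cryopreserved 2 for 40.5% and in control 1 for 18%, beside 45.1%, 24.6% and 30.3% of the others. These percentages of loci, too, come from values that the rule used. For the summed counts of the 200, the order of control 1 and control 3 turned with the scaling. Their part of all counts was 1.16% in control 1 and 0.975% in control 3. Their mean normalized count was 1448 in control 1 and 1640 in control 3. In how many loci control 1 would be the lowest of its side without the size factors was not counted.

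**Figure D2:**
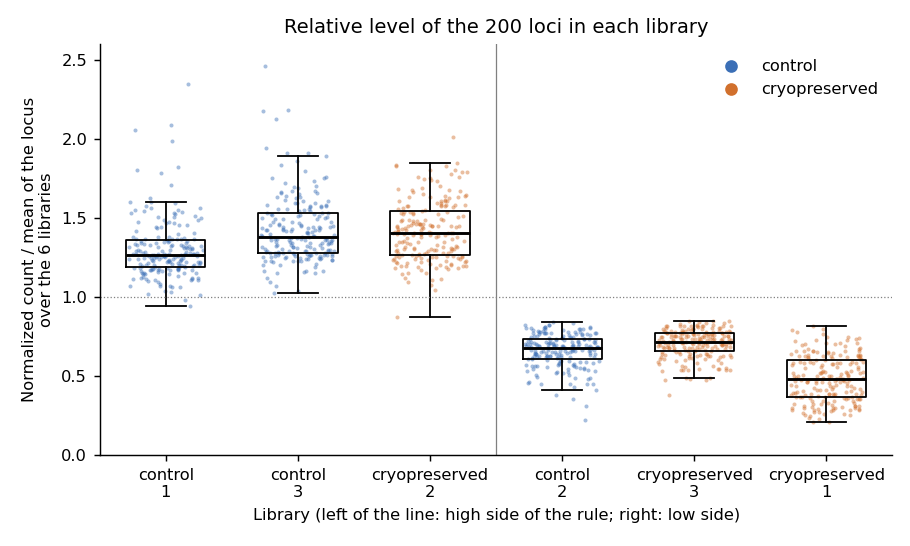
Normalized count of each of the 200 loci divided by its mean over the 6 libraries, with 1 point per locus, boxes for the median and quartiles and whiskers to the last point within 1.5 times the box height. The medians are 1.27, 1.38 and 1.41 left of the line and 0.681, 0.715 and 0.481 right of it, with cryopreserved 1 the lowest and the most spread of the low side.

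Without control 3 and cryopreserved 1 the difference was smaller and kept its direction in every one of the 200 loci. Control 1 and cryopreserved 2 exceeded control 2 and cryopreserved 3 by a median of 0.95 log2 units, from 0.62 to 2.28, against a median of 1.14 log2 units with all 6 libraries. These libraries are among those that chose the loci, so the shared direction is set by the rule. Which loci head the ranking depended strongly on the libraries. Applied without both control 3 and cryopreserved 1, the rule kept 45 of the 200. Without control 3 alone it kept 90, and without cryopreserved 1 alone 103. Without control 1 alone it kept 75, and without cryopreserved 3 alone 80, so the list did not hang on control 3 and cryopreserved 1 only.

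In the study's own contrast, cryopreserved against control, no change was called in any of the 200 loci, but the rule leaves little room for one. It places libraries of both groups on each side of the gap, so a spread within each group was built into every member, and the counts below are a description and no result about the contrast. All 200 entered edgeR's quasi-likelihood test over 21846 loci, and 0 passed a Benjamini-Hochberg adjusted p of 0.05, as did 0% of all loci. At an unadjusted p under 0.05 there were 0 of the 200, beside 0.581% of all tested loci. DESeq2 called 0 of the 200 (0.0196% of all its loci) and had 1 at an unadjusted p under 0.05 (1.43% of all). With limma-voom 0 passed either threshold, and 0.458% of all loci were at an unadjusted p under 0.05. In none of the 200 were the groups free of overlap, since each side holds libraries of both groups, whereas 3.62% of all tested loci separated the groups.

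The fitted log2 fold changes leaned to lower values in the cryopreserved group, which follows from the make-up of the sides. Their median was -0.34 and 197 of 200 were below 0, beside a median of 0.02 and 48.4% below 0 over all tested loci. The high side holds 2 controls and 1 cryopreserved library and the low side the reverse, so most loci chosen for this split have a lower cryopreserved mean through that choice. The median standard error was 0.52 log2 units, larger than that median, beside 0.50 over all tested loci. Without cryopreserved 1 the median was -0.05, without control 3 it was -0.13, and without both it was 0.15. It was -0.24 without control 1 and -0.24 without cryopreserved 3. All of these libraries share their side with another library of their group. Leaving them out evens the sides between the groups, so the weaker lean also follows largely from the choice of loci. The median was -0.91 without cryopreserved 2 and -0.61 without control 2. Each of these libraries is the only one of its group on its side. Leaving it out brings the contrast nearer to the rule's split, so these values follow largely from the choice of loci.

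The extremes of this contrast among the 200 were ABG768_008594 and ABG768_010975 at the low end, and ABG768_003464 and ABG768_011979 at the high end. ABG768_008594 had 406, 160.2 and 757 normalized counts in controls 1 to 3, and 89.3, 268 and 166 in cryopreserved 1 to 3, with overlapping groups. Its log2 fold change was -1.32 ± 0.65 (SE), with an edgeR adjusted p of 0.999955. This value was -0.67 without control 3, -1.003 without cryopreserved 1 and -0.36 without both. It was -1.38 without control 1, -1.29 without cryopreserved 3, -1.72 without control 2 and -1.77 without cryopreserved 2. The value of ABG768_010975, -0.93 ± 0.89 (SE), was -0.81 without control 3, -0.55 without cryopreserved 1 and -0.43 without both. It was -0.45 without control 1 and -2.001 without cryopreserved 2. ABG768_008594 was also the 1 locus at an unadjusted p under 0.05 with DESeq2, at 0.0431. ABG768_003464 had 1225, 722 and 1085 in controls 1 to 3, and 631, 2108 and 514 in cryopreserved 1 to 3. Its fitted value was 0.12 ± 0.55 (SE), and that of ABG768_011979 was 0.05 ± 0.43 (SE), both with an edgeR adjusted p of 0.999955. Neither sign was stable: without cryopreserved 2 the values were -0.81 and -0.40, without control 2 -0.08 and -0.18, with the replicate number as a block -0.20 and -0.01, and with limma-voom that of ABG768_003464 was -0.13. Without control 3 and cryopreserved 1 together they were 0.46 and 0.38. For all the loci named here, such shifts follow in part from the side on which the left-out library lies.

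Compared within a side, the cryopreserved libraries were not uniformly lower. The rule used these values too, since it bars a high value in any low library and a low value in any high one. The differences below are therefore partly set by the choice of loci, and the other ranked loci beside them were not chosen in that way. On the high side, cryopreserved 2 differed from the mean of controls 1 and 3 by a median of 0.06 log2 units over the 200 loci, and was above it in 58%, beside 47.7% of the other ranked loci. On the low side, cryopreserved 1 and 3 together differed from control 2 by a median of -0.22 log2 units and were above it in 24.5%, beside 53.8%. That lower value lay in cryopreserved 1, whose median difference from control 2 was -0.48 log2 units, whereas cryopreserved 3 was above control 2 by a median of 0.07, and in 66% of the 200 loci beside 48.9% of the others. Over the other ranked loci the medians of the first 2 comparisons were -0.02 and 0.03. In 8 of the 200 loci, or 4%, every cryopreserved library was above every control of its own side, beside 5.61% of the other ranked loci, and in 20, or 10%, every one was below, beside 6.2%. With 1 library of a group on each side, these differences have no replicate check and were not tested.

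**Figure D3:**
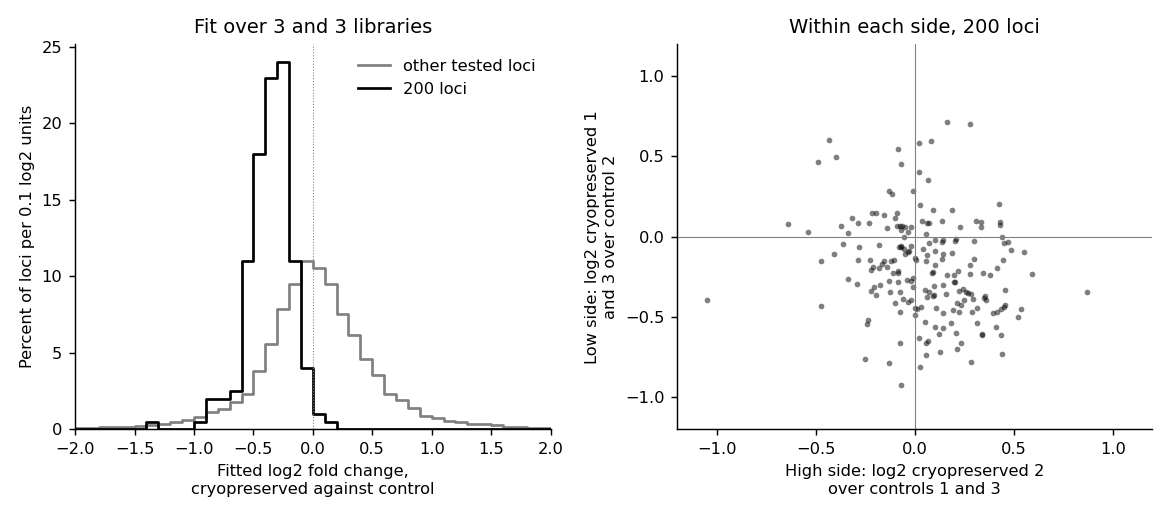
Left, distribution of the fitted log2 fold change for cryopreserved against control in the 200 loci (black) and the other tested loci (grey), in percent per 0.1 log2 units. Right, for each of the 200 loci, the log2 difference between cryopreserved and control libraries within the high side (horizontal) and within the low side (vertical). The black curve is centred at -0.34, and the points are centred at 0.06 on the horizontal and -0.22 on the vertical axis.

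As a share of all counts, the 200 loci together took 1.16%, 0.647% and 0.975% in controls 1 to 3 and 0.303%, 1.34% and 0.66% in cryopreserved 1 to 3. Cryopreserved libraries thus held both the lowest and the highest share. The group means were 0.928% ± 0.260 for controls and 0.769% ± 0.529 for cryopreserved libraries (SD, n = 3 each). The rule puts a control among the low libraries and a cryopreserved library among the high ones, so the overlap of the groups in this share was fixed by the choice of loci, and no p is given. The difference of -0.158 percentage points became 0.0745 without cryopreserved 1, and 0.0982 without both that library and control 3. Leaving these libraries out evens the sides between the groups, so these shifts too follow largely from the choice of loci.

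The 200 loci were short, a property the rule did not use. Their median span in the annotation, introns included, was 4779 bases, with quartiles of 2545.5 and 10023 bases, against 10854.5 bases for the other ranked loci. The ranked loci were ordered by span and cut into 5 classes with equal numbers of loci. The shortest class, up to 4489 bases, held 96 of the 200, and the classes above it held 37, 36, 17 and 14. The shorter span was seen at each level of expression. In 3 equal classes of the ranked loci by mean count, from the lowest to the highest, the members had median spans of 4009, 5299.5 and 7260 bases, against 7212, 10939 and 14762.5 bases for all ranked loci. In the converse set, the 200 loci with the highest score when the sides were swapped, the median span was 20633.5 bases. A span does not give a transcript length.

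Span was also tied to the libraries in loci outside the 200. In the shortest class of other ranked loci, control 3 lay a median of 0.31 log2 units above the locus median and control 2 and cryopreserved 1 lay 0.17 and 0.15 units below it. In the longest class the signs were turned, to -0.23 in control 3 and to 0.08 and 0.16 in control 2 and cryopreserved 1. Cryopreserved 2 ran from 0.11 to -0.03, and control 1 and cryopreserved 3 stayed between -0.04 and 0.03 in all 5 classes. The high side was wholly above the low side in 28.4% of the shortest class of these loci and in 8.32% of the longest, beside 16.9% over all of them. What part the trend of whole libraries with span has in the short span of the 200 was not tested. With the rule applied without control 3, the 200 highest-scoring loci had a median span of 5889 bases, beside 11501 for the loci then ranked. These values were 4011 and 10219.5 bases without cryopreserved 1, and 4533.5 and 10938.5 without both. They were 4874 and 10677 bases without control 2, and 4333.5 and 10764 without control 1. Without cryopreserved 2 they were 4465.5 and 10692 bases, and without cryopreserved 3 they were 3632 and 10551.

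**Figure D4:**
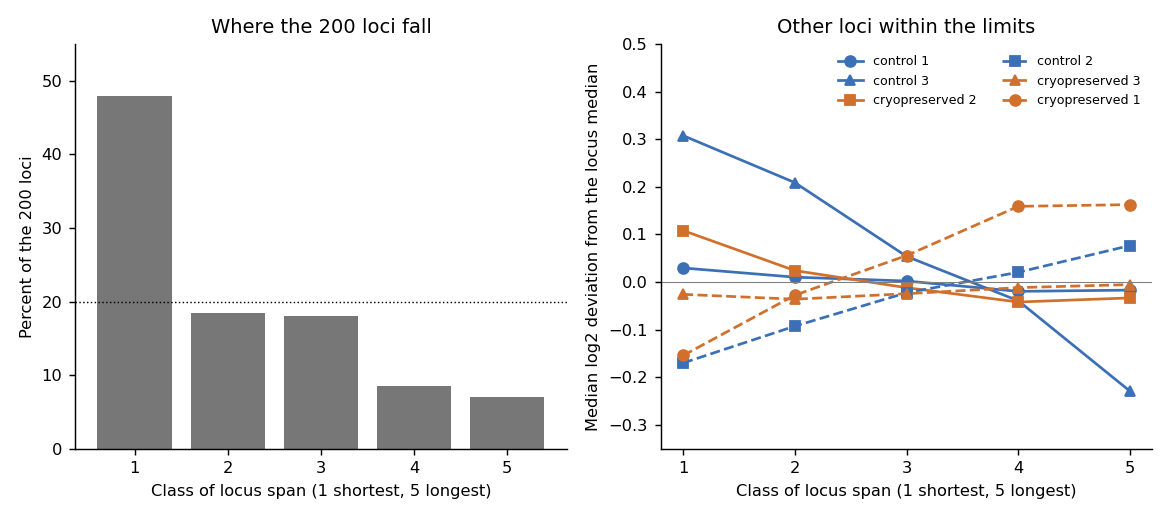
Left, percent of the 200 loci in each of 5 classes of span that hold equal numbers of ranked loci; the dotted line marks the 20% that equal shares would give. Right, for the ranked loci outside the 200, the median log2 deviation of each library from the locus median, by span class, with solid lines for the high side and dashed lines for the low side. The shortest class holds 48% of the 200 loci, and in that class control 3 reaches 0.31 while control 2 lies at -0.17.

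Within the 200, size of the difference and span were only loosely related. Across these loci, which share the same 6 libraries, Spearman's rho between span and the log2 ratio of the sides was -0.17, and that between mean count and this ratio was -0.218. The members of the longest class had a median log2 ratio of 1.02, against 1.195 in the shortest. The cut on the score keeps every ratio high and narrows their range, so a weak relation within the 200 was partly set by the rule. Among the other ranked loci the median log2 ratio ran from 0.356 in the shortest class to -0.216 in the longest. More than 1 protein was annotated for 12 of the 200 loci, or 6%, against 8.67% of all ranked loci.

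The 200 loci were scattered over the genome. They lay on 24 of the 30 sequences of the annotation that carry loci, with 4 to 15 on each. These 24 are all the sequences with at least 100 ranked loci. Among these 24 the share of ranked loci that belonged to the 200 ranged from 0.716% to 2.96%, around 1.51% in all. Only 1 pair, ABG768_008866 and ABG768_008867, were next to each other. ABG768_008866 stood at 402, 554 and 507 normalized counts in control 1, control 3 and cryopreserved 2, and at 245, 229.5 and 231 in control 2, cryopreserved 1 and cryopreserved 3. ABG768_008867 stood at 288, 365 and 291 against 130.4, 128 and 161. Both had a narrow low side and their maximum in control 3. Their log2 fold changes for cryopreserved against control were -0.29 ± 0.49 and -0.42 ± 0.54 (SE), with an edgeR adjusted p of 0.999955 for both. Without control 3 and cryopreserved 1 together these values turned to 0.22 and 0.14. That removal evens the sides between the groups, so the turn follows in part from the choice of loci.

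At most 5 places in the order of loci separated 11 pairs, which involved 22 of the 200. How many such pairs other ranked loci would form was not counted. The loci next to a member did not share its pattern to a visible degree. There were 392 such neighbours outside the 200, of which 223 were ranked. Their median log2 ratio of the high over the low side was 0.06, beside 0.04 for all ranked loci outside the 200. The high side was wholly above the low side in 28 of the 223, or 12.6%, against 16.9% of the ranked loci outside the 200.

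The converse set differed in strength. The highest and the last score among its 200 loci were 6.33 and 1.83, against 2.95 and 1.47 here, and its median log2 ratio was -1.91 against 1.14. A score above 1 was reached by 2275 of 13240 ranked loci here and by 1970 of 13270 with the sides swapped. Among ranked loci, those high in control 1, control 3 and cryopreserved 2 were thus the more numerous above this score. They had the smaller differences at the top of the list. Over all tested loci, without the limits and the constant, the order was the other way, with 14% wholly above and 14.4% wholly below. This is a description of these 6 libraries and was not tested.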

How the data were processed

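Libraries were made from poly-T captured RNA and read on Illumina instruments, per the labels' protocols. What the authors deposited is 1 table of raw counts per locus in 6 libraries; its aligner, counter, build and strandedness are not stated in the sources used here. Columns were matched to samples by title. The 200 loci, the lists and the tests were chosen with earlier results of these data known.

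The contrast was tested on the counts as deposited with the quasi-likelihood test of edgeR 4.0.16 in R 4.3.3, its default expression filter by group, TMM factors, the group as the single term, and Benjamini-Hochberg adjustment over all tested loci at 0.05. Standard errors are the log2 fold change over the square root of F. DESeq2 1.42.0 and limma-voom (limma 3.58.1) were alternatives, beside other scalings and filters, the replicate number as a block, each library left out and, added after seeing the data, control 3 and cryopreserved 1 left out together. The procedure was also run on simulated counts, drawn independently for each locus. These held no split of libraries shared between loci, so they do not show how the procedure behaves under such a split. Descriptions used Python 3.11.15 and scipy 1.17.1. The exact permutation test planned for the share of counts is not reported, since the choice of loci fixes its outcome. Named loci were the 6 highest scores, the pairs on each side of the last rank and the 2 highest mean counts. They also included the 2 largest and 2 smallest fitted changes, and the longest run of neighbours. Planned gene lists and sequence features could not be used, as 0 symbols were matched.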

Additional observations from a re-analysis of the deposited data

How the results depend on the processing

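The call of 0 of the 200 loci held under every alternative run, and so did the call of 0 loci in all except with DESeq2, which called 5. The rule leaves little room for a call in the 200 loci, so their 0 is no evidence of an absence of change. The number of the 200 at an unadjusted p under 0.05 was 0 as reported and 1 with DESeq2. With 1 library left out it was 0 to 7, where 7 came without cryopreserved 2 (1.96% of all loci) and 2 without control 2 (1.18%). Each of these libraries is the only one of its group on its side, so leaving it out brings the contrast nearer to the rule's split. The counts of 7 and 2 thus follow largely from the choice of loci and are no result about the contrast. With the replicate number as a block, 0 loci were called and the median log2 fold change of the 200 was -0.47. The labels state no pairing, so the numbers were not taken as pairs. Over the tested loci the deviations of libraries with the same number were correlated at -0.14, -0.38 and -0.05. Libraries with the same number lie on opposite sides of the split, so these values cannot show whether the numbers mark pairs. The difference in the share of counts ranged from -0.446 to 0.0745 percentage points with 1 library left out, turning its sign without cryopreserved 1. It was 0.0982 without control 3 and cryopreserved 1 together. These shifts, too, follow largely from the side on which the left-out library lies. Rerun with other settings, the rule kept 93 of the 200 loci with scaling by library size only, 75 to 138 with 1 library left out (75 without control 1, 80 without cryopreserved 3, 90 without control 3, 103 without cryopreserved 1) and 45 without control 3 and cryopreserved 1 together, against 147 to 188 for the other settings. Fewer libraries leave more loci within the limits, between 13582 and 17770 against 13240; the cause of the other shifts was not tested. None of the 17 named loci passed the threshold under any of 15 alternatives. The median standard error was 0.52 log2 units in the 200 loci and 0.50 over all tested loci. With 3 libraries a group and such errors, small changes would not be detectable, in these loci or in others. Larger ones could be missed too: other tested loci had fitted values below -2 and above 2 log2 units, and edgeR called 0 loci.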
